A study of Mus musculus with 2 samples.

Results

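The 38 genes described here encode parts of the lysosome: 23 hydrolases, their protein partners and membrane proteins, and 15 subunits of the vacuolar proton pump, V-ATPase. They were taken by gene symbol from a list of lysosomal genes. The rule itself uses no measured value, but the members were chosen with earlier results of these data known. Of the 38, 37 had at least 1 probe set assigned to that gene alone, among 18193 such genes on the array, and Atp6v0c was not analysed here. The 37 genes were read by 91 probe sets.

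The measurements came from RAW264.7 cells, a mouse macrophage-like line, that stably carried murine LXRα, a nuclear receptor for oxidised sterols, introduced by chemical transfection. Both groups carried this receptor. One group was kept for 24 h with the solvent DMSO and the other for 24 h with GW3965 at 1 µM, an agonist of LXR, together with LG268 at 100 nM, an agonist of its partner RXR. Whether it was a single clone was not given in the sources used here. Each group had 1 Affymetrix mouse array, so neither a replicate spread nor a test of any difference was possible, and "higher" and "lower" below compare these 2 arrays.

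Lysosomes are acidic organelles in which soluble hydrolases break down glycans, lipids and proteins brought in by endocytosis, phagocytosis and autophagy. The acid is made by V-ATPase, whose cytosolic V1 sector splits ATP and turns a rotor that drives protons through the membrane-bound V0 sector. Macrophages, which digest engulfed cells and lipoproteins, are rich in both. Many lysosomal genes carry a short E-box-like element near their start, to which the transcription factor TFEB and its relatives bind.

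Because the members share a pathway, their promoters are shown first, from RefSeq on build GRCm38.p6. The letters CACGTG and the longer TCACGTG, which contains them, were searched on both strands in windows of 300 bases, 250 before and 50 after each annotated start. Of the 33 members with a window, 12 held CACGTG, and the same 12 held TCACGTG (36.4%). Among all 27025 genes with a window the shares were 8.09% for CACGTG and 4.29% for TCACGTG, and among the 9047 of them that were measured on the arrays 11.9% and 7.04%. The windows of the members had a median GC content of 56.3%, against 60.7% over the windows of measured genes. The 6 members with a match in the last 100 bases before the start are printed below, 5′ to 3′ on the gene's strand and ending at the last base before the start, with each CACGTG in capitals.
Lamp1, chr8:13159061-13159160, plus strand: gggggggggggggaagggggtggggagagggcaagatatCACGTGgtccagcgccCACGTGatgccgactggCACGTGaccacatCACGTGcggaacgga
Naglu, chr11:101069994-101070093, plus strand: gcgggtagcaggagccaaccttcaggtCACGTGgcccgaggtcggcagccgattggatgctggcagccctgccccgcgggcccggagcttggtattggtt
Glb1, chr9:114400978-114401077, plus strand: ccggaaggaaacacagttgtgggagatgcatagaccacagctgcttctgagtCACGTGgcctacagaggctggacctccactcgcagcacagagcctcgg
Sgsh, chr11:119355511-119355610, minus strand: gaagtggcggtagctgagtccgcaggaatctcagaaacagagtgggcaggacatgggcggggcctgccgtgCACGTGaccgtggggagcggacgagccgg
Arsa, chr15:89477425-89477524, minus strand: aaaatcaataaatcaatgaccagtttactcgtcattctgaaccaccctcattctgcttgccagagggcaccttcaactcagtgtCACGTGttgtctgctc
Atp6v0b, chr4:117887330-117887429, minus strand: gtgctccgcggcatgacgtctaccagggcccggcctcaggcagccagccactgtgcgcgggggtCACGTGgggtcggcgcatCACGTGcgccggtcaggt

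Lamp1 held 4 copies within this stretch and Atp6v0b held 2. Further from the start, Cln3 and Gla held 2 copies each and Gaa and Atp6v1a 1 each. Cln3 also had another annotated start, whose window held no match. The match of Atp6v0d1 spanned the start, and that of Atp6v0e lay just after it. Atp6v1b2, Atp6v1c1, Atp6v1g1, Atp6v1h and Galns had no window. A match is a description of these letters and not a binding site.

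All 37 genes were measured, which here means a signal above a floor of 276.4 on at least 1 array, and their brightest probe sets were above it on both. The floor was the median of all gene probe sets. Over the 11077 measured genes of the series the median log2 ratio, ligand array divided by DMSO array, was -0.03. A single probe set's log2 ratio had an SD of 0.28, estimated from the disagreement between the 2 brightest probe sets of 4866 genes, and of 0.15 over the 788 genes whose 2 probe sets were both among the brightest 25%. This SD covers the disagreement of probe sets within the 2 arrays and not variation between cultures. An error shared by both probe sets of a gene cancels in it. Probe sets that read different transcripts of a gene add to it. The macrophage markers were present, with all 9 on the array measured and Csf1r, the receptor for macrophage colony-stimulating factor, at 127050.0 with DMSO and 132072 with the ligands. They were not level: 5 were higher and 4 lower, from Itgam at a log2 ratio of -0.21 to Fcgr1 at 0.61 and Mpeg1 at 1.02, and their part in the results below was not tested. None of 6 fibroblast markers, 1 of 7 lymphoid markers, 3 of 5 granulocyte markers and 1 of 4 dendritic cell markers was measured. The measured members of the last 3 lists were each below the floor on 1 of the arrays.

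The lysosomal genes were slightly and broadly higher on the ligand array. By the brightest probe set of each gene, 29 of 37 had a positive log2 ratio, against 46.2% of all measured genes, and the median was 0.21, a 1.15-fold difference. No member was at least 1.5-fold higher or lower, against 6.36% and 4.77% of all measured genes. At a smaller step, a log2 ratio of 0.32 or more in size, 12 members were higher and 2 lower, where the background was 15.7% and 15.5%. RNA came from whole cultures, so a different amount of RNA per cell and a different mixture of cells cannot be told apart.

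Bright probe sets vary less than dim ones, and most members were bright. Of the 25 members among the brightest 25% of measured genes (mean signal of at least 9098), 20 had positive ratios, 6 were higher and 1 lower by that smaller step, and the median was 0.20. The 2770 genes in that range had a median of -0.03, 44.4% of them were positive, and 9.57% were higher and 8.52% lower by the step. The plot of the cumulative distributions shows the members displaced to the right of both backgrounds around the middle, but not at the upper end, where the background reaches ratios that no member had.

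**Figure D1:**
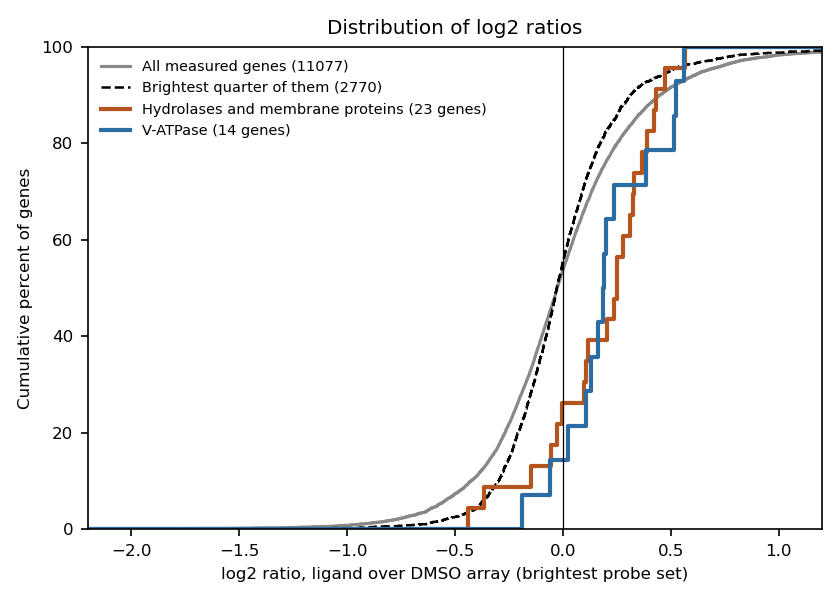
Cumulative percent of genes (vertical axis) with a log2 ratio, ligand over DMSO array, up to the value on the horizontal axis. The lines stand for the 23 hydrolases and membrane proteins, the 14 V-ATPase genes, all 11077 measured genes and the 2770 brightest of them. The medians are 0.25, 0.19, -0.03 and -0.03, and the highest member ratio is 0.57.

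The hydrolases and membrane proteins had a median log2 ratio of 0.25, with 17 of 23 positive, 8 at 0.32 or more and 2 at -0.32 or less. The V-ATPase genes had a median of 0.19, with 12 of 14 positive, 4 at 0.32 or more and none at -0.32 or less. Of all measured genes, 46.2% were positive, 15.7% were at 0.32 or more and 15.5% at -0.32 or less. The medians of the classes were 0.06 apart, which is small beside the spread within each class, from -0.44 to 0.57 among the hydrolases and membrane proteins and from -0.19 to 0.56 among the V-ATPase genes. The difference between the classes was not tested.

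**Figure D2:**
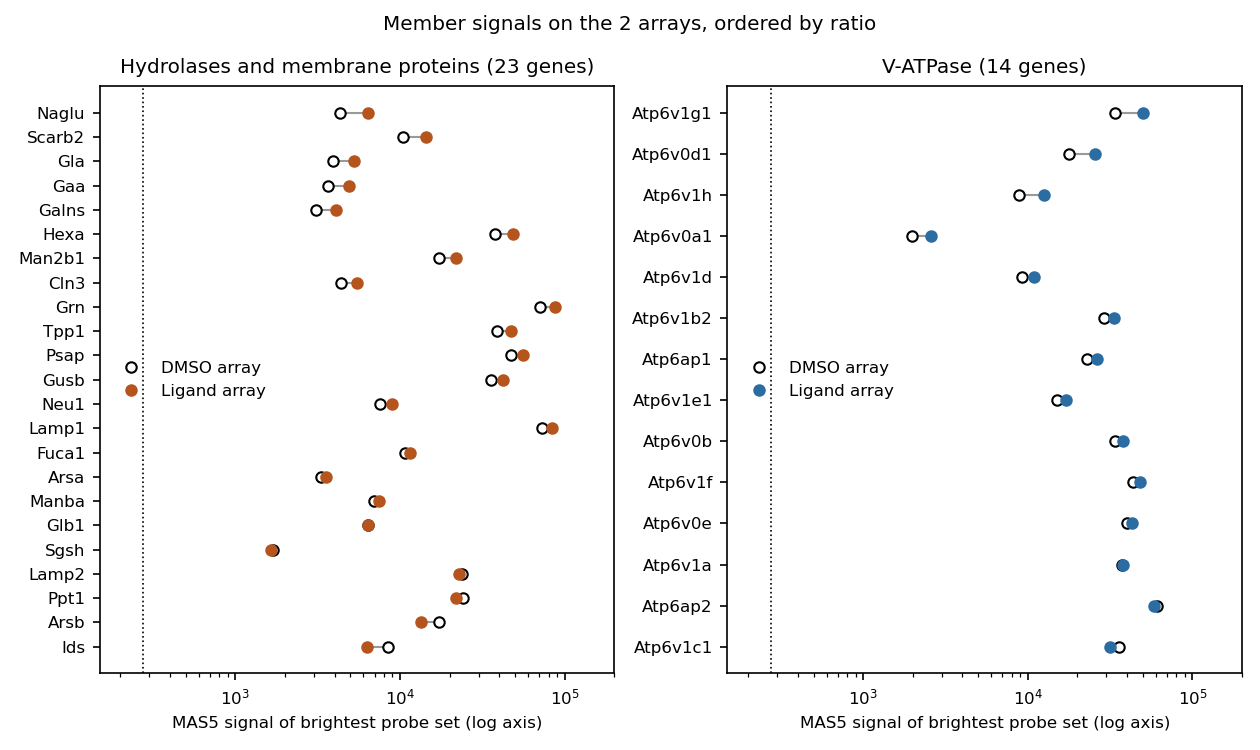
MAS5 signal of the brightest probe set of each member (horizontal log axis) on the DMSO array (open circles) and the ligand array (filled circles), with genes ordered by their ratio and the floor of 276.4 dotted. The differences are small on this scale: the widest, that of Naglu, runs from 4309.6 to 6387.

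Among the hydrolases, the glycosidases, which cleave sugars from glycans and glycolipids, were nearly all higher. Of 10 measured, 9 had a positive log2 ratio, 5 reached 0.32 and the median was 0.29. Of all measured genes, 46.2% were positive and 15.7% reached 0.32. After centring or quantile normalization 10 glycosidases were positive, when Glb1 joined them. With the mean over probe sets 8 were positive, when Gla was at -0.01. Naglu, which removes N-acetylglucosamine from heparan sulfate, gave 4309.6 on the DMSO array and 6387 on the other, which is 1.48-fold higher and the highest ratio of all members, from a single probe set. Gla, the α-galactosidase that degrades globotriaosylceramide, gave 3907 and 5269.8 (1.35-fold higher). A weak second probe set of Gla ran the other way, from 380.4 with DMSO to below the floor with the ligands, at least 1.38-fold lower. Gaa, the acid α-glucosidase that digests glycogen, gave 3655 and 4900.0 (1.34-fold higher), and its other probe set had a log2 ratio of 0.33. These 3 enzymes act on different substrates, and each was higher in its brightest probe set.

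Hexa, the α subunit of β-hexosaminidase, which degrades GM2 ganglioside, gave 37792 and 48671 (1.29-fold higher). Man2b1, the lysosomal α-mannosidase, gave 17353 and 21818 (1.26-fold higher), and its dimmer probe set gave 752.7 and 1149 (1.53-fold higher). Gusb, β-glucuronidase, had log2 ratios of 0.25 and 0.41, both positive. The sialidase Neu1 had 0.23 and, in a dimmer probe set, 0.02. Fuca1, the α-fucosidase, had only 0.12 in its brightest probe set but 0.38 and 0.50 in others. Manba, the β-mannosidase, had a log2 ratio of 0.10. Glb1, β-galactosidase, was the exception, with 6403 and 6374 and a log2 ratio of -0.01 from a single probe set.

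The sulfatases, which strip sulfate from glycosaminoglycans and sulfolipids, had no settled direction. Of 5 measured, 2 were positive and 3 negative by the brightest probe set, where 46.2% of all measured genes were positive. The median log2 ratio of the 5 was -0.03. With the mean over probe sets 3 were positive and the median was 0.11, and with centring 3 were positive and the median lay just above 0. Galns, which desulfates keratan sulfate, gave 3101 and 4065 (1.31-fold higher). Arsa, which acts on sulfatide, gave 3306 and 3557 (a log2 ratio of 0.11), and Sgsh, heparan N-sulfatase, had -0.03 and a value close to 0 in its dimmer probe set; centring the ratios on the median of all genes turned Sgsh just above 0. Arsb, which desulfates dermatan sulfate, gave 17329 with DMSO and 13464 with the ligands, 1.29-fold lower, but its 2 dimmer probe sets had log2 ratios of -0.06 and close to 0. The difference between sulfatases and glycosidases was not tested.

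Ids, the iduronate sulfatase of heparan and dermatan sulfate breakdown, had the lowest ratio of all members and the least settled one. Its brightest probe set gave 8495 and 6257, 1.36-fold lower. A second gave 1722 and 1554, also lower. Dimmer ones gave 525.0 and 753.3 (1.43-fold higher) and 278.5 and 521.4 (1.87-fold higher), and a further 2 were below the floor on both arrays. The mean log2 ratio over the 4 measured probe sets was 0.21, of the opposite sign to that of the brightest.

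Of the remaining soluble members, Tpp1, a tripeptidyl peptidase, gave 39001 and 47254 (1.21-fold higher), and its other probe set had a log2 ratio of 0.07. Ppt1, the thioesterase that removes palmitate from proteins, gave 24178 and 21842 (1.11-fold lower), but its 4 measured probe sets ran from -0.20 to 0.09. Psap, the precursor of the saposins that help sphingolipid hydrolases, gave 46986 and 55942 (1.19-fold higher), and 0.36 by log2 in its second probe set. Grn, the precursor of the granulins, gave 70487 and 87459 (1.24-fold higher), and its 3 probe sets lay between 0.27 and 0.46. Both precursors were thus higher in each of their probe sets, whereas Ppt1 had no single direction.

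Of the 4 membrane proteins, 3 were higher by the brightest probe set, against 46.2% of all measured genes, and their median log2 ratio was 0.26. Scarb2, also called LIMP-2, the receptor that carries β-glucocerebrosidase to lysosomes, gave 10392 and 14434 (1.39-fold higher), and 0.20 by log2 in its other probe set. Lamp1, a major glycoprotein of the lysosomal membrane, gave 72910.0 and 84049 (1.15-fold higher) from 1 probe set, and its promoter held the most copies of CACGTG among the members. Lamp2, its relative with a role in the fusion of autophagosomes, gave 23826 and 22894 in its brightest probe set, a log2 ratio of -0.06. Its 3 other probe sets were all higher, at 0.39, 0.46 and 0.57, and the mean over the 4 was 0.34. Lamp2 is spliced into isoforms with different tails, and which isoform each probe set reads was not determined. Cln3, a membrane protein mutated in a childhood neuronal storage disease, gave 4383 and 5488 (a log2 ratio of 0.32), while its dim probe set gave 420.1 and 279.6 (a log2 ratio of -0.59).

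**Figure D3:**
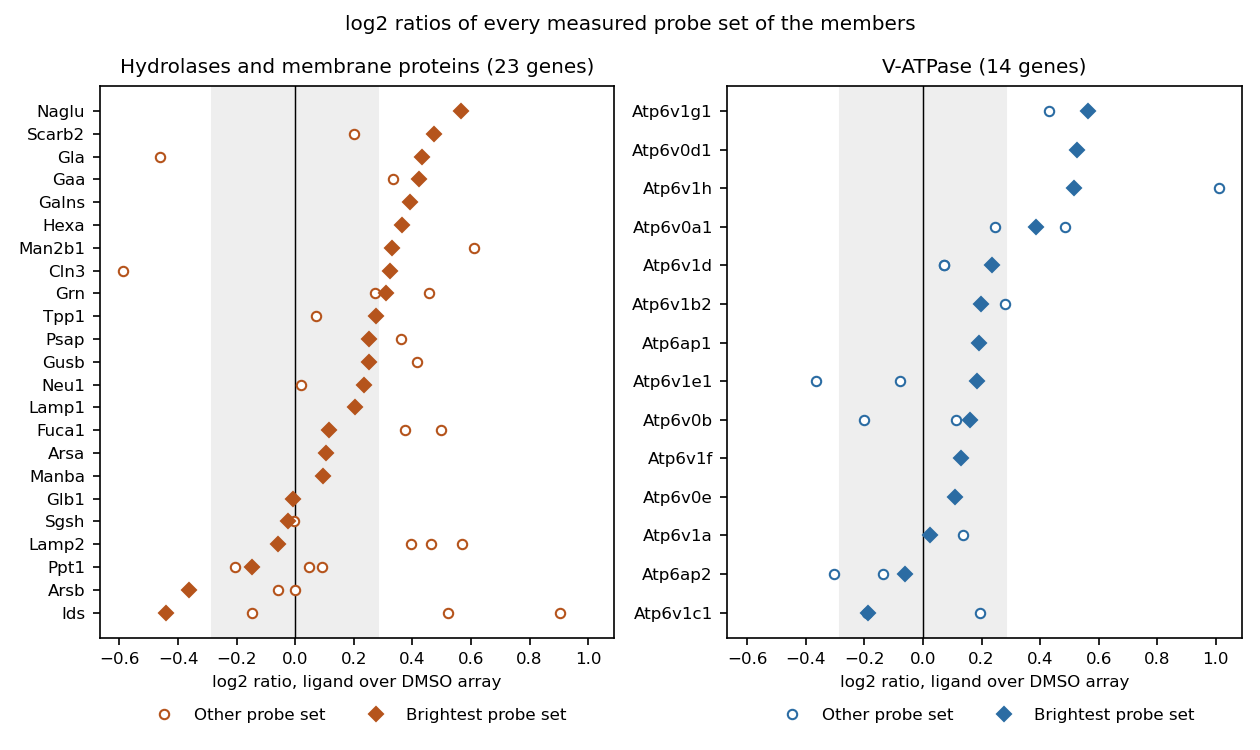
Log2 ratio, ligand over DMSO array, of each of the 78 measured probe sets of the members, with diamonds for the brightest probe set of a gene and open circles for the others. The shaded band is 1 SD of a probe set's ratio (0.28) to each side of 0, and a value from a probe set below the floor on 1 array is a bound. Most points lie right of 0, and Ids, Cln3, Lamp2 and Atp6v1e1 are among the genes with probe sets far apart.

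The 4 measured members of the V0 sector of V-ATPase were all higher by the brightest probe set, with a median log2 ratio of 0.27. Of all measured genes, 46.2% were positive. Atp6v0d1, which couples the rotor to the central stalk, gave 17675 with DMSO and 25445 with the ligands (1.44-fold higher) from 1 probe set. Atp6v0a1, a form of the subunit that holds the proton channels, gave 1981 and 2589 (1.31-fold higher), and its other measured probe sets were at 0.25 and 0.49. Atp6v0b, a subunit of the proteolipid ring, gave 34057 and 38079 (1.12-fold higher), but 1 of its 3 probe sets was at -0.20. Atp6v0e, a small membrane subunit, gave 39786 and 42889 (1.08-fold higher). These 4 members therefore shared a sign but not a size.

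The V1 sector had 8 measured members, 7 of them positive by the brightest probe set, with a median log2 ratio of 0.19. Of all measured genes, 46.2% were positive. After quantile normalization 6 of the 8 were positive, when Atp6v1a was at -0.03. With the mean over probe sets, or without _s_at and _x_at probe sets, 6 were positive, when Atp6v1e1 was at -0.09 and -0.37. Atp6v1g1, a subunit of the peripheral stalks, gave 34023 and 50224 (1.48-fold higher), and its second probe set above the floor gave 28516 and 38443 (1.35-fold higher). Atp6v1h, a subunit that regulates the pump's activity, gave 8797 and 12563 (1.43-fold higher), and a dim probe set gave 406.0 and 817.4 (2.01-fold higher), the only 2-fold ratio among the 78 measured probe sets of the members (background 1.8%). With Atp6v0d1 and Atp6v0a1, these made up the 4 V-ATPase members at 0.32 or more.

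The other V1 members had smaller ratios. Atp6v1d, part of the central stalk, gave 9282 and 10931 (1.18-fold higher), with 2 other probe sets at 0.07. Atp6v1b2, the B subunit that forms the catalytic head together with A, gave 28917 and 33162 (1.15-fold higher), with a second at 0.28. The catalytic A subunit itself, Atp6v1a, gave 37375 and 37974, a log2 ratio of 0.02, with a second probe set at 0.14. Atp6v1e1 and Atp6v1f, of the peripheral and the central stalk, had 0.18 and 0.13, and a dimmer probe set of Atp6v1e1 was at -0.37. Another probe set of Atp6v1e1 went from 291.5 with DMSO to below the floor with the ligands, at least 1.05-fold lower. Atp6v1c1, a subunit at the interface of the sectors, was the only V1 member below 0 by its brightest probe set, with 35953 and 31546 (1.14-fold lower). Its 3 probe sets did not share a sign, at -0.19, -0.19 and 0.19.

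The accessory subunits diverged. Atp6ap1, an assembly factor, gave 22999 and 26246 (1.14-fold higher). Atp6ap2, the (pro)renin receptor, gave 61157 and 58603 (1.04-fold lower), and all 3 of its probe sets were below 0, at -0.06, -0.14 and -0.30. It was 1 of 3 members, with Arsb and Sgsh, with several probe sets above the floor and all of them lower. The share of such genes over the whole array was not computed.

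**Figure D4:**
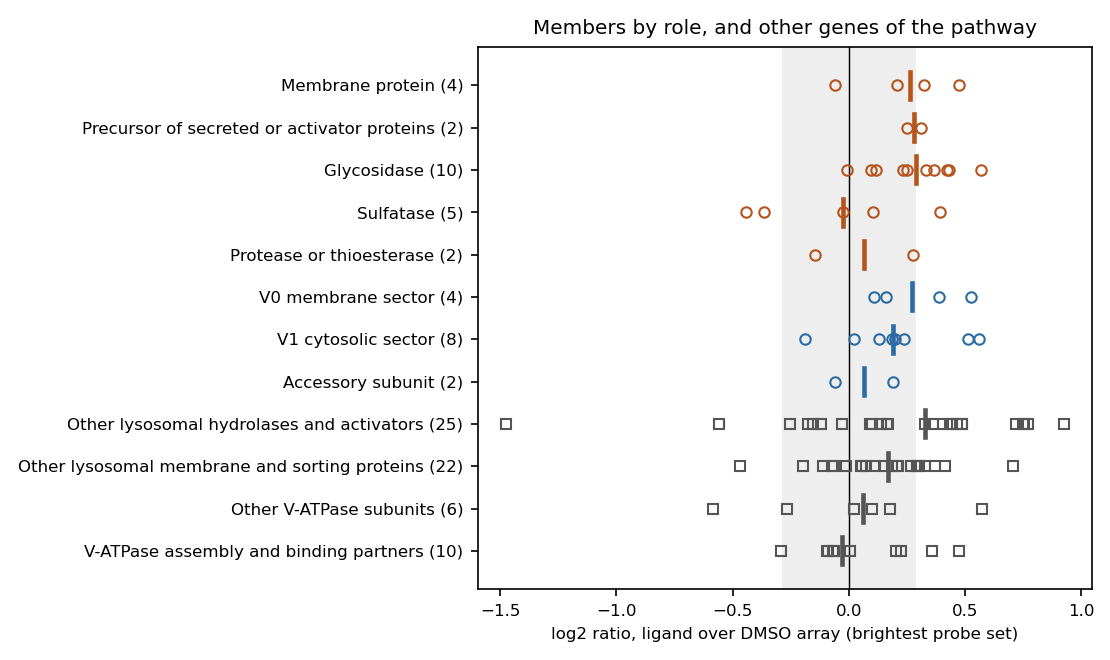
Log2 ratio, ligand over DMSO array, of the brightest probe set of each measured gene, by role. Circles are members, squares are other genes of the pathway, thick bars are medians, numbers in brackets are genes, and the shaded band is 1 SD of a probe set's ratio (0.28). The sulfatases (median -0.03) and the V-ATPase partners (median -0.03) lie around 0. The medians of the glycosidases (0.29), the V0 sector members (0.27) and the other hydrolases (0.33) lie to its right.

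Agreement between probe sets gives a partial measure of the error within the 2 arrays, and none of the variation between cultures. Of 25 members with 2 or more probe sets that cleared the floor on each array, 15 had positive ratios in all of them. Another 3 had negative ratios in all and 7 had both signs. The same shares over all genes were not computed, so these counts describe the members only. The median range between the probe sets of a gene was 0.24 on the log2 scale, slightly more than the median ratio of the members (0.21). Over all 78 measured probe sets 57 were positive, against 47.3% of all measured probe sets, and 27 reached 0.32 and 5 reached -0.32, against 17.9% and 17.5%. At 1.5-fold, 3 were higher and 1 lower, against 7.34% and 5.98%. By the probe set SD of 0.28, 13 of 37 members (35.1%) lay more than 1 SD above 0 and 2 (5.41%) more than 1 SD below, against 17.9% and 18.6% of measured genes. By the SD of 0.15 for bright probe sets, 16 of the 25 bright members lay more than 1 SD above 0 and 2 more than 1 SD below, against 21.9% and 27.3% of the 2770 bright genes.

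Among the measured members with a window, the promoter letters did not sort the genes by ratio. The 12 measured members with CACGTG in the window had a median log2 ratio of 0.18, from -0.03 to 0.57, and 10 were positive. The 20 without it had a median of 0.21, from -0.44 to 0.47, and 15 were positive. Of all measured genes, 46.2% were positive. The comparison leaves out the 5 members without a window. These were Atp6v1g1 (0.56), Atp6v1h (0.51), Galns (0.39), Atp6v1b2 (0.20) and Atp6v1c1 (-0.19). The 6 printed promoters belong to genes from the highest ratio, Naglu, to values just below 0, Glb1 and Sgsh.

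Other genes of the same pathway, not among the members, gave a like picture for hydrolases and another for the pump's partners. Of 25 measured hydrolases, activators and enzymes of the targeting tag, 18 were positive, 13 reached 0.32, 2 reached -0.32 and the median log2 ratio was 0.33; over all measured genes 15.7% and 15.5% reached these steps. The 1.5-fold step was reached upward by 5 of these genes (6.36% of all measured genes) and downward by 1 (4.77%). Pla2g15, a lysosomal phospholipase, gave 1853 and 3520.1 (1.90-fold higher). Hyal2, a hyaluronidase, gave 1044 and 1779, and Dnase2a, the acid nuclease, 501.2 and 845.9 (1.70-fold and 1.69-fold higher). Gm2a, the activator that presents GM2 ganglioside to β-hexosaminidase, gave 10108 and 16972 (1.68-fold higher), and 1.16 by log2 in a second probe set. The fifth, Galc, which removes galactose from galactocerebroside and was named after its values were seen, gave 2601 and 4279 (a log2 ratio of 0.72, and 1.35 in a second probe set). The only one at least 1.5-fold lower was the sulfatase Arsk, from 768.6 with DMSO to below the floor, at least 2.78-fold lower. Hgsnat, the acetyltransferase of heparan sulfate breakdown, also named after its values were seen, gave 16472 and 11169, a log2 ratio of -0.56. That list also held Manbal and Tpp2, which are not lysosomal enzymes, with log2 ratios of -0.12 and -0.18. Without them 18 of 23 were positive with a median of 0.36. This count was an added alternative, and leaving out negative ratios raises the share. The other genes of the list were kept as they were.

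Of 22 other membrane and sorting proteins, 16 were positive, against 46.2% of all measured genes, with a median log2 ratio of 0.17. Ctns, the cystine exporter, was the only one at least 1.5-fold apart (935.9 and 1527, 1.63-fold higher). Of all measured genes, 6.36% were higher and 4.77% lower by that step. Of 6 other measured V-ATPase subunits, 4 were positive, and the median was 0.06. Among these 6, Atp6v1g2 (positive) and Atp6v1e2 (negative) were below the floor on 1 array, so their ratios are bounds. The V-ATPase assembly factors and binding partners had 5 of 10 positive and a median of -0.03, close to that of all measured genes.

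The V-ATPase subunit d exists as a widely expressed form, Atp6v0d1, and a form known from osteoclasts, Atp6v0d2, and these ran in opposite directions. Atp6v0d2 gave 2243 with DMSO and 1494 with the ligands (a log2 ratio of -0.59), and its second probe set was at -0.48, while Atp6v0d1 was 1.44-fold higher. Tcirg1, the a3 form of the channel subunit that osteoclasts use, gave 9894 and 11195, a log2 ratio of 0.18. Most measured osteoclast markers, a list that holds Atp6v0d2 itself, were lower as well. Of 9 on the array, 7 were measured, and 6 of these were lower, against 5963 of the 11077 measured genes. At least 1.5-fold lower were 5, Atp6v0d2 included, against 4.77% of all measured genes. Nfatc1, 1 of the 5, had 4 probe sets above the floor, from -1.01 to 0.37. The summed signal of the 9 markers was 25729 with DMSO and 13210.4 with the ligands, and Calcr and Itgb3 were below the floor on both arrays. The part of these markers in the ratios of the lysosomal genes was not tested.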

How the data were processed

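The deposited values were intensities, 1 MAS5 signal per probe set on a linear scale, made by the authors with MAS5, per the submitters' processing notes (version not given in the sources used here). Both arrays had a 2% trimmed mean of 2500 and were used as deposited, so ratios are relative to the bulk of the array. Probe sets with 1 gene symbol (34945 of 45101) were named through the platform annotation, and symbols were updated by gene identifier to GRCm38.p6. The probe set with the highest mean log2 signal stood for each gene. Signals below the median of all gene probe sets were set to that floor. Levels of different probe sets are not comparable. With 1 array a group no p-value was computed. Members and lists were chosen with earlier results of these data known. Named in full were the 6 highest and 4 lowest of each class, members whose probe sets disagreed strongly, and other pathway genes at least 1.5-fold apart, at most 4 in each direction a list; further values complete the account of each member. The procedure was tested on simulated data. Alternatives were other floors, log2(signal + 32), quantile normalization, centring, probe set choice and fold thresholds. Python 3.11.15, numpy 2.4.6 and pandas 2.3.3 were used.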

Additional observations from a re-analysis of the deposited data

How the results depend on the processing

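The medians of the classes and the number of positive members kept their direction under 8 other choices of floor, normalization and probe set. They also did so among the brightest 25% of genes, an alternative chosen after seeing the data. Some choices could do little, because the members' brightest probe sets were above the floor on both arrays. The lower floor and the restriction to genes above the floor on both arrays left every member's ratio unchanged. With the higher floor or an added constant the class medians stayed at 0.25 and 0.19. Centring shifted all ratios by the same amount. Only quantile normalization and the choice of probe set were fuller checks. The median log2 ratio ran from 0.21 to 0.28 for hydrolases and membrane proteins and from 0.13 to 0.21 for V-ATPase, and 28 to 31 of 36 or 37 members were positive, or 26 of the 35 with a value when _s_at and _x_at probe sets were left out and 20 of 25 among the brightest. The number of members at least 1.5-fold higher went from 0 to 1 in each class after centring on the median ratio, and to 1 for V-ATPase with the mean over probe sets. At a log2 ratio of 0.32 in place of 1.5-fold it was 8 higher and 2 lower for hydrolases and membrane proteins and 4 higher for V-ATPase; at 2-fold it was 0. Of the 34 members with a value under all 8 choices, 27 kept their sign, as did Atp6v0b and Atp6ap1 under the 7 that gave them one. The sign changed under at least 1 choice for Lamp2, Gla, Glb1, Ids, Sgsh, Cln3, Atp6v1a and Atp6v1e1. All of these changes came with quantile normalization, centring or a different choice of probe set, and none with a choice of floor. No paired analysis was possible because each group had 1 array, and no array could be left out. Signals near the floor are the least reliable, which concerns dim probe sets such as those of Gla, Ids, Cln3, Atp6v1e1, Sgsh, Ppt1 and Atp6v1h.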
